A study of Mus musculus with 4 samples.

Results

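Heat shock proteins, chaperonins and chaperones of the endoplasmic reticulum (ER) were followed in RNA of mouse prefrontal cortex, in females with a transgene for the human synaptic form of acetylcholinesterase (AChE, which degrades acetylcholine) and in control females. They were chosen by gene symbol: probe sets assigned to a single gene whose symbol begins with Hsp, Dnaj, Pdia or Fkbp, or with Cct or Hsf and a digit, together with Calr, Canx, Stip1 and Tcp1, and without Fkbp5 and Hspg2. This gave 75 of the 8251 genes named by a single symbol on the array, read by 102 of its 12422 probe sets. Each of the 4 arrays was hybridised with total RNA pooled from 4 mice. The 2 control arrays came from female FVB/N mice and the 2 transgenic arrays from the AChE-overexpressing females. The sources used here do not give age, the promoter that drives the transgene, the strain that carries it or whether the 2 pools of a group held different mice. P-values therefore rest only on spread between pools, which may be technical. The spread of each probe set was also drawn toward that of others of like intensity (2 residual and 7.51 prior degrees of freedom).

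Chaperones bind unfolded or partly folded proteins, and HSP70, HSP90 and the chaperonins release them in cycles that use ATP. In the cytosol, HSP70 proteins act with J-domain proteins that deliver clients and start ATP hydrolysis, HSP90 matures kinases and receptors, and the ring-shaped chaperonin TRiC folds actin and tubulin. In the ER, the HSP70 relative BiP (Hspa5), the HSP90 relative Grp94 (Hsp90b1), the lectins calnexin and calreticulin and the protein disulfide isomerases fold secreted and membrane proteins, among them AChE itself. Mitochondria hold their own HSP70 (Hspa9) and a chaperonin made from Hspd1 and Hspe1. Heat shock factors switch on the cytosolic genes under heat or misfolding, and the unfolded protein response switches on ER chaperone genes through the ER stress element. Neurons also use a specialised J-domain protein, cysteine string protein (Dnajc5), on synaptic vesicles.

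The promoters of 4 ER chaperones on which the results turn are shown first, since their genes share a folding route but differed in signal. The 250 bases before the annotated start of each gene were taken from RefSeq (mouse build GRCm38.p6) and run 5′ to 3′ on the gene's strand. Capitals mark matches to the ER stress element, searched on both strands as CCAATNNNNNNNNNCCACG.
Hspa5 (chr2:34771840-34772089, plus strand): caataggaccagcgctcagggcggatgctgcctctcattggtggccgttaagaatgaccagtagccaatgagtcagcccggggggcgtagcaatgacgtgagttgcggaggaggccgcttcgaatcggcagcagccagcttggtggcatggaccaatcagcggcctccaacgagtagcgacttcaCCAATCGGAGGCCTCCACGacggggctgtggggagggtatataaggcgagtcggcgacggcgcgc
Hsp90b1 (chr10:86705445-86705694, minus strand): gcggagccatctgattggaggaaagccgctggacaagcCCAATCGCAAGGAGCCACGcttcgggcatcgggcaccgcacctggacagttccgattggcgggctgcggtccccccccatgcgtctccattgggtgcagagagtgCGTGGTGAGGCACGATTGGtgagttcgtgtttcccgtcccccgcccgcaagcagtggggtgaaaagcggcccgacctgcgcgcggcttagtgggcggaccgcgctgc
Pdia3 (chr2:121413652-121413901, plus strand): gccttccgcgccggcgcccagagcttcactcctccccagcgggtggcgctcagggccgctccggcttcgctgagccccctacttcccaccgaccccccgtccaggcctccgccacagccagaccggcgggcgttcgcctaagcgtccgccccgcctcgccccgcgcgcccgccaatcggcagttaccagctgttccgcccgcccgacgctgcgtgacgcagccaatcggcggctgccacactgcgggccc
Pdia6 (chr12:17266339-17266588, plus strand): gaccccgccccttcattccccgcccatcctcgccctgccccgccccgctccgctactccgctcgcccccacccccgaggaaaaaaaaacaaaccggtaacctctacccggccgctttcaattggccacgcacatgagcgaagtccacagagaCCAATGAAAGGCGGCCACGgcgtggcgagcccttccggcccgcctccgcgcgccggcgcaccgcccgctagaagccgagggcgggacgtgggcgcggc
Hspa5 and Pdia6 held 1 match each and Hsp90b1 held 2, of which the one nearer the gene lies on the opposite strand. The letters were not found in the Pdia3 window.

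A promoter was found in the RefSeq table for 66 of the 75 genes, searched over 300 bases that include the first 50 of the transcript. The ER stress element was present in 6 of 17 ER chaperone genes (35.3%), in 0 of 42 genes of the cytosol and nucleus and in 0 of 6 mitochondrial genes. Over all 27025 genes with a promoter its share was 0.137%, and over their 32851 promoters of that length it was 0.119%. The other 3 ER genes with a match are given by the matching bases alone.
Calr (chr8:84847075-84847093, plus strand): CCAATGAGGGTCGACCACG
Canx (chr11:50325800-50325818, minus strand): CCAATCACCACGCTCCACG
Dnajc3 (chr14:118937827-118937845, plus strand): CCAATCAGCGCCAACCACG
A heat shock element of 3 units was searched on both strands as GAANNTTCNNGAA. It was present in 2 of 42 genes of the cytosol and nucleus (Dnajb6 and Hsph1) and in 2 of 6 mitochondrial genes (Hspd1 and Hspe1). It was present in 0 of 17 ER genes, against 0.662% of all genes with a promoter and 0.603% of all promoters. Dnajb6 is shown because it had the highest log2 change among the chaperones, with the element in capitals.
Dnajb6 (chr5:29735648-29735897, plus strand): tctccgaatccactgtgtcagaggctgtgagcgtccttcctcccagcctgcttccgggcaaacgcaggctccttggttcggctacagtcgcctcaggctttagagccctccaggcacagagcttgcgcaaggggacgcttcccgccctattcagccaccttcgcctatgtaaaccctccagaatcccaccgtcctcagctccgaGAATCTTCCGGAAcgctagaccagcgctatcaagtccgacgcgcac
Hspd1 and Hspe1 lie head to head, and the matches in their promoters are the same bases, which overlap each other.
Hspd1 (chr1:55088059-55088071, minus strand): GAAGGTTCTAGAA
Hspd1 (chr1:55088064-55088076, plus strand): GAACCTTCCGGAA
A match describes the letters of the promoter and does not show that a factor binds there.

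The comparison asked which chaperone genes differ between transgenic and control cortex. Values are intensities on a linear scale, compared on the log2 scale after raising those under 19.675 to that floor, and 78 of the 102 chaperone probe sets, of 63 genes, were bright enough to be tested. Of these, 5 rose (Dnajb6, Dnajb2, Pdia3, Hspa8 and Hsp90b1) and 2 fell (Dnajc5 and Pdia6) at an adjusted p under 0.05 (limma, Benjamini-Hochberg over all tested probe sets). The rises are 6.41% of the chaperone probe sets, beside 5.46% of all 7453 tested, and the falls are 2.56%, beside 4.56%, and the difference between these shares was not tested. Their median log2 change was 0.08, beside -0.03 over all tested probe sets, and 64 of 78 lay within 0.5 of 0 (82.1%, beside 81.0% of all). Groups did not overlap and were higher in the transgenic pools for 29 probe sets (37.2%) and lower for 17 (21.8%), beside 23.8% and 29.9% of all tested. Without transgenic replicate 1 the counts that passed were 3 higher and 0 lower, without transgenic replicate 2 they were 2 and 1, and without control replicate 2 they were 7 and 1.

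**Figure D1:**
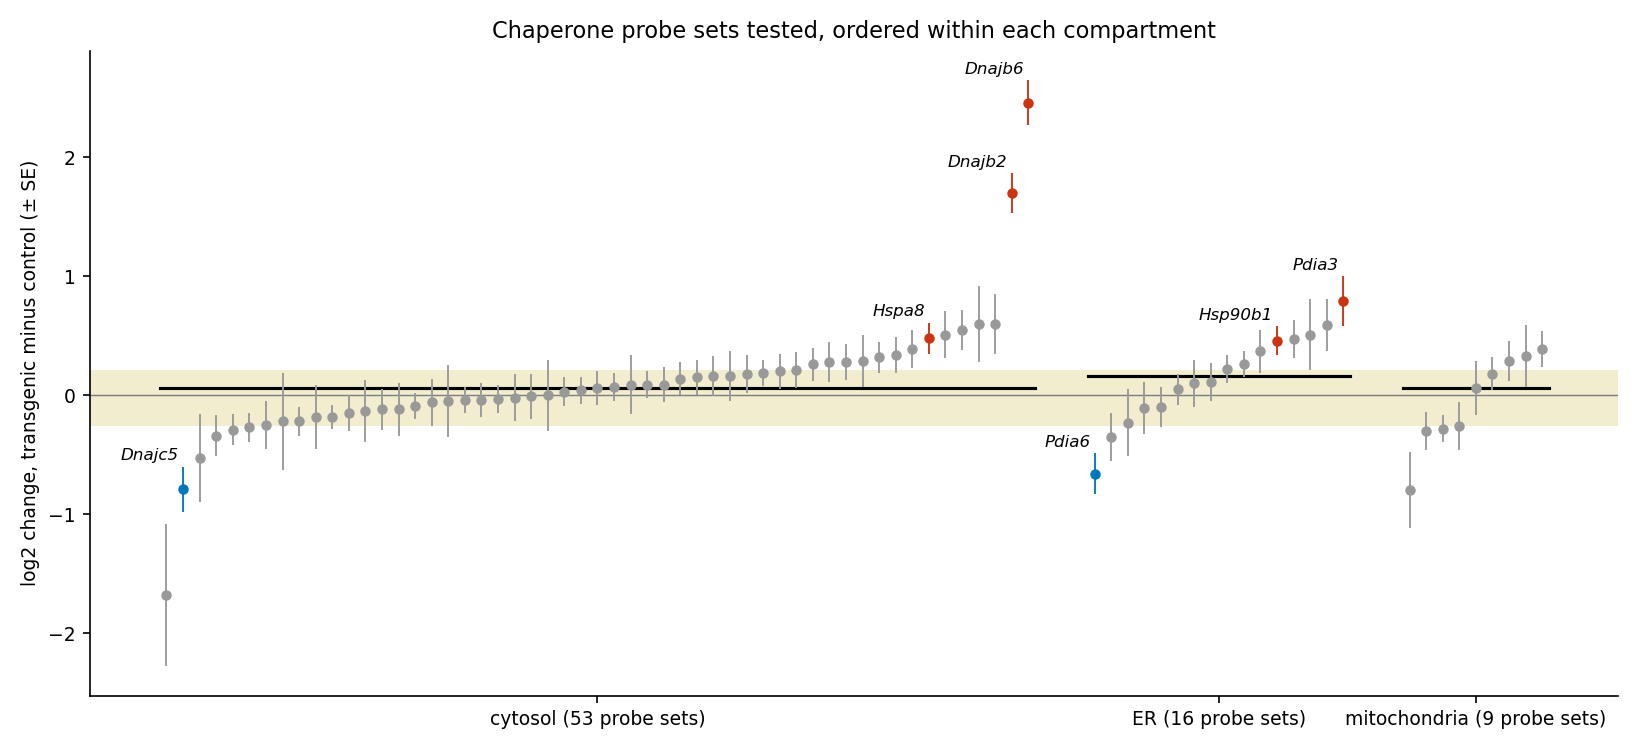
Log2 change (transgenic minus control, with SE) of the 78 tested chaperone probe sets, ordered within each compartment, with red for those that rose, blue for those that fell and grey for the others. Black lines are the compartment medians (0.06, 0.16 and 0.06), the shaded band spans the quartiles of all 7453 tested probe sets (-0.26 to 0.21), and most chaperones lie near 0 while Dnajb6 and Dnajb2 stand above 1.5.

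By compartment, assigned from textbook knowledge of each gene, 3 rose and 1 fell of 53 probe sets of the cytosol and nucleus, with a median log2 change of 0.06. In the ER 2 rose and 1 fell of 16, with a median of 0.16. In mitochondria 0 rose and 0 fell of 9, with a median of 0.06 and 3 of the 9 at an unadjusted p under 0.05, which 24.3% of all tested probe sets had. The ER had 11 of 16 log2 changes above 0, the cytosol and nucleus 30 of 53 and mitochondria 5 of 9, beside 3414 of 7453 over the array. These medians depended on which probe sets were read. With 1 probe set per gene, the brightest, they were -0.01 for the cytosol and nucleus, 0.32 for the ER and -0.10 for mitochondria. Without transgenic replicate 2 the ER median was 0.24 and the mitochondrial median -0.22, and without control replicate 2 the ER median was 0.29. The mitochondrial median thus changed sign with single choices, while the ER median was above 0 under each alternative run.

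J-domain proteins, the partners that hand clients to HSP70, held the largest changes. Dnajb6, which keeps aggregation-prone proteins such as polyglutamine soluble, read 71.8 and 68.1 on the control arrays, against 369.8 and 399.6 on the transgenic arrays at 104625_at. Both transgenic pools lay far above both controls, a 5.50-fold rise (log2 change 2.46 ± 0.19 SE, adjusted p = 2.15e-05). Its other probe set, 96120_at, made from another sequence, read 2320.1 and 2384.3 on the control arrays and 2141.4 and 2287.9 on the transgenic arrays. There the transgenic values lay slightly below the controls without overlap, and the log2 change was -0.09 ± 0.11 (adjusted p = 0.683). The log2 ratio of the first to the second was -5.01 and -5.13 for the controls and -2.53 and -2.52 for the transgenic pools, a difference of 2.55. The groups did not overlap, but a two-sided exact permutation test of 2 against 2 arrays cannot give a p below 0.333. The sources used here do not say which transcripts each probe set detects.

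Dnajb2, a J-domain protein enriched in neurons that sorts misfolded clients to the proteasome, read 172.3 and 143.9 on the control arrays, against 520.1 and 503.1 on the transgenic arrays. This was a 3.25-fold rise in both pools (log2 change 1.70 ± 0.17 SE, adjusted p = 1.33e-04), read by 1 probe set only. Dnajc5, the cysteine string protein of synaptic vesicles, went the other way, from 262.3 and 308.8 to 146.0 and 186.6. The groups did not overlap, and the fall was 1.72-fold (log2 change -0.79 ± 0.19, adjusted p = 0.0319). Its adjusted p was 0.123 without control replicate 2 (log2 change -0.67), 0.145 and 0.061 without transgenic replicates 1 and 2 (-0.61 and -0.96), and 0.0874 without the intensity trend in the variance. Without the filter on dim probe sets Dnajb2 had 0.0846 and Dnajc5 0.263, while Dnajb6 still passed (0.0495).

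Most other J-domain proteins did not pass. Of 28 tested J-domain probe sets of 24 genes 2 rose (7.14%, beside 5.46% of all tested) and 1 fell (3.57%, beside 4.56%). The median log2 change was 0.11. Within 0.5 of 0 lay 19 of the 28 (67.9%, beside 81.0% of all tested). Groups were apart and higher at 13 (46.4%, beside 23.8%) and apart and lower at 6 (21.4%, beside 29.9%). Dnaja1, a main cytosolic partner of HSP70, read 2596.9 and 2450.8 on the control arrays and 2756.0 and 2603.4 on the transgenic arrays (adjusted p = 0.684). Dnajb1, which is induced by heat, read 470.9 and 538.3 against 522.7 and 526.7 (adjusted p = 0.845). The groups overlapped for Dnajb1 and were barely apart for Dnaja1. Dnajb5 had the lowest log2 change of the chaperones, -1.68 ± 0.60, but did not pass (adjusted p = 0.118). It read 112.5 and 170.7 on the control arrays and 16.5 and 95.3 on the transgenic arrays, which differed widely from each other, with transgenic replicate 1 at the floor. It passed without control replicate 1 (adjusted p = 2.37e-04), without transgenic replicate 2 (0.0135, where the only transgenic array left is at the floor) and with the replicate number as a block (0.0181). Without transgenic replicate 1, the array at the floor, its log2 change was -0.54 (adjusted p = 0.364).

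Among HSP70 proteins, Hspa8 rose. This constitutive HSC70, which folds new proteins and uncoats clathrin vesicles at the synapse, read 2419.4 and 2111.2 on the control arrays, against 2884.5 and 3438.5 on the transgenic arrays. Both transgenic values exceeded both controls by 1.39-fold on average (log2 change 0.48 ± 0.13 SE, adjusted p = 0.0437). The adjusted p was 0.174 without control replicate 2 (log2 change 0.38), 0.0542 and 0.209 without transgenic replicates 1 and 2 (0.61 and 0.35), and 0.193 without the intensity trend and 0.324 without the filter. It was 0.0619 after quantile normalization and 0.0534 under a higher floor, the 40th percentile. Probe sets with symbols beginning with Hspa also include mitochondrial and ER members and the HSP110-type Hspa4 and Hspa4l. Of 12 such probe sets tested, 1 rose (8.33%, beside 5.46% of all tested) and 0 fell (beside 4.56%). Their median log2 change was -0.02.

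The heat-inducible HSP70 genes Hspa1a and Hspa1b, neighbouring copies that encode nearly the same protein, had log2 changes of opposite sign. Hspa1a read 329.0 and 274.9 on the control arrays and 230.6 and 245.3 on the transgenic arrays (log2 change -0.34 ± 0.17, adjusted p = 0.263). Hspa1b read 324.2 and 306.8 against 364.0 and 402.6 (log2 change 0.28 ± 0.15, adjusted p = 0.305). Neither passed, and the sources used here do not say whether these probe sets separate the copies, which leaves both values uncertain. Hsph1, the HSP110 that exchanges nucleotide on HSP70, had 0.04 ± 0.11 (adjusted p = 0.863). Hspa4, a second HSP110-type gene, had log2 changes from -0.12 to 0.60 over 4 tested probe sets, and 0 passed.

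The cytosolic HSP90 gene Hsp90aa1 read 5679.9 and 5951.6 on the control arrays, against 4868.6 and 5443.5 on the transgenic arrays. The transgenic pools were both lower, but the log2 change of -0.18 ± 0.10 did not pass (adjusted p = 0.342). Stip1, the adaptor that links HSP70 to HSP90, had 0.28 ± 0.17 (adjusted p = 0.367). Small heat shock proteins gave 0 calls of 2 tested, and Hspb1, which guards actin and prevents aggregation, read between 11.5 and 27.4 on the 4 arrays and was not tested. Of the immunophilins, Fkbp1a, the FK506 receptor that also sits on calcium release channels, had -0.22 ± 0.12 (adjusted p = 0.296). Fkbp4, an HSP90 partner of steroid receptors, had -0.03 and 0.16 at its probe sets. In all 0 rose and 0 fell of 9 tested FK506-binding protein probe sets, beside 5.46% and 4.56% of all tested. At an unadjusted p under 0.05 (limma) were 3 of the 9, beside 24.3% of all tested. Hsp90ab1 and Hsf1 were not analysed here.

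The chaperonin TRiC, a ring of different subunits, did not pass at any probe set. Of 12 tested probe sets of 9 genes 0 rose and 0 fell (beside 5.46% and 4.56% of all tested), with log2 changes between -0.06 and 0.55. At an unadjusted p under 0.05 (limma) were 3 of the 12, beside 24.3% of all tested. Cct2 read 138.7 and 126.7 on the control arrays and 174.9 and 204.1 on the transgenic arrays (log2 change 0.51 ± 0.20, adjusted p = 0.14). Cct4 read 757.6 and 839.3 against 957.0 and 1038.3 (0.32 ± 0.13, adjusted p = 0.162). In both of these the groups were apart and higher, as at 5 of the 12 probe sets in all (41.7%, beside 23.8% of all tested). Groups were apart and lower at 0 of the 12, beside 29.9% of all tested. Nearer 0 lay Tcp1 at -0.02, Cct7 at 0.03, Cct8 at -0.06, Cct6a at 0.20 and the testis-type subunit Cct6b at -0.05. Cct3 had 0.55 ± 0.17 at 161238_f_at (adjusted p = 0.0797) but 0.09 and -0.04 at its other tested probe sets, and Cct5 had 0.29 and 0.07.

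In the ER, Hsp90b1 rose at the only probe set that reads it. This HSP90 of the ER lumen read 1224.8 and 1116.3 on the control arrays, against 1623.3 and 1587.5 on the transgenic arrays. The groups were clearly apart, with a 1.37-fold rise (log2 change 0.46 ± 0.12 SE, adjusted p = 0.0392). Hspa5, the BiP chaperone that senses unfolded protein, read 1404.4 and 1392.4 against 1683.0 and 1676.9. Its pools agreed closely within each group and did not overlap, but the log2 change of 0.26 ± 0.11 did not pass (adjusted p = 0.181, and at least 0.115 under each alternative run). Without control replicate 2 the adjusted p of Hsp90b1 was 0.183 (log2 change 0.39), without transgenic replicate 1 or 2 it was 0.125 or 0.122 (0.44 or 0.47), and without the intensity trend or the filter it was 0.164 or 0.161.

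**Figure D2:**
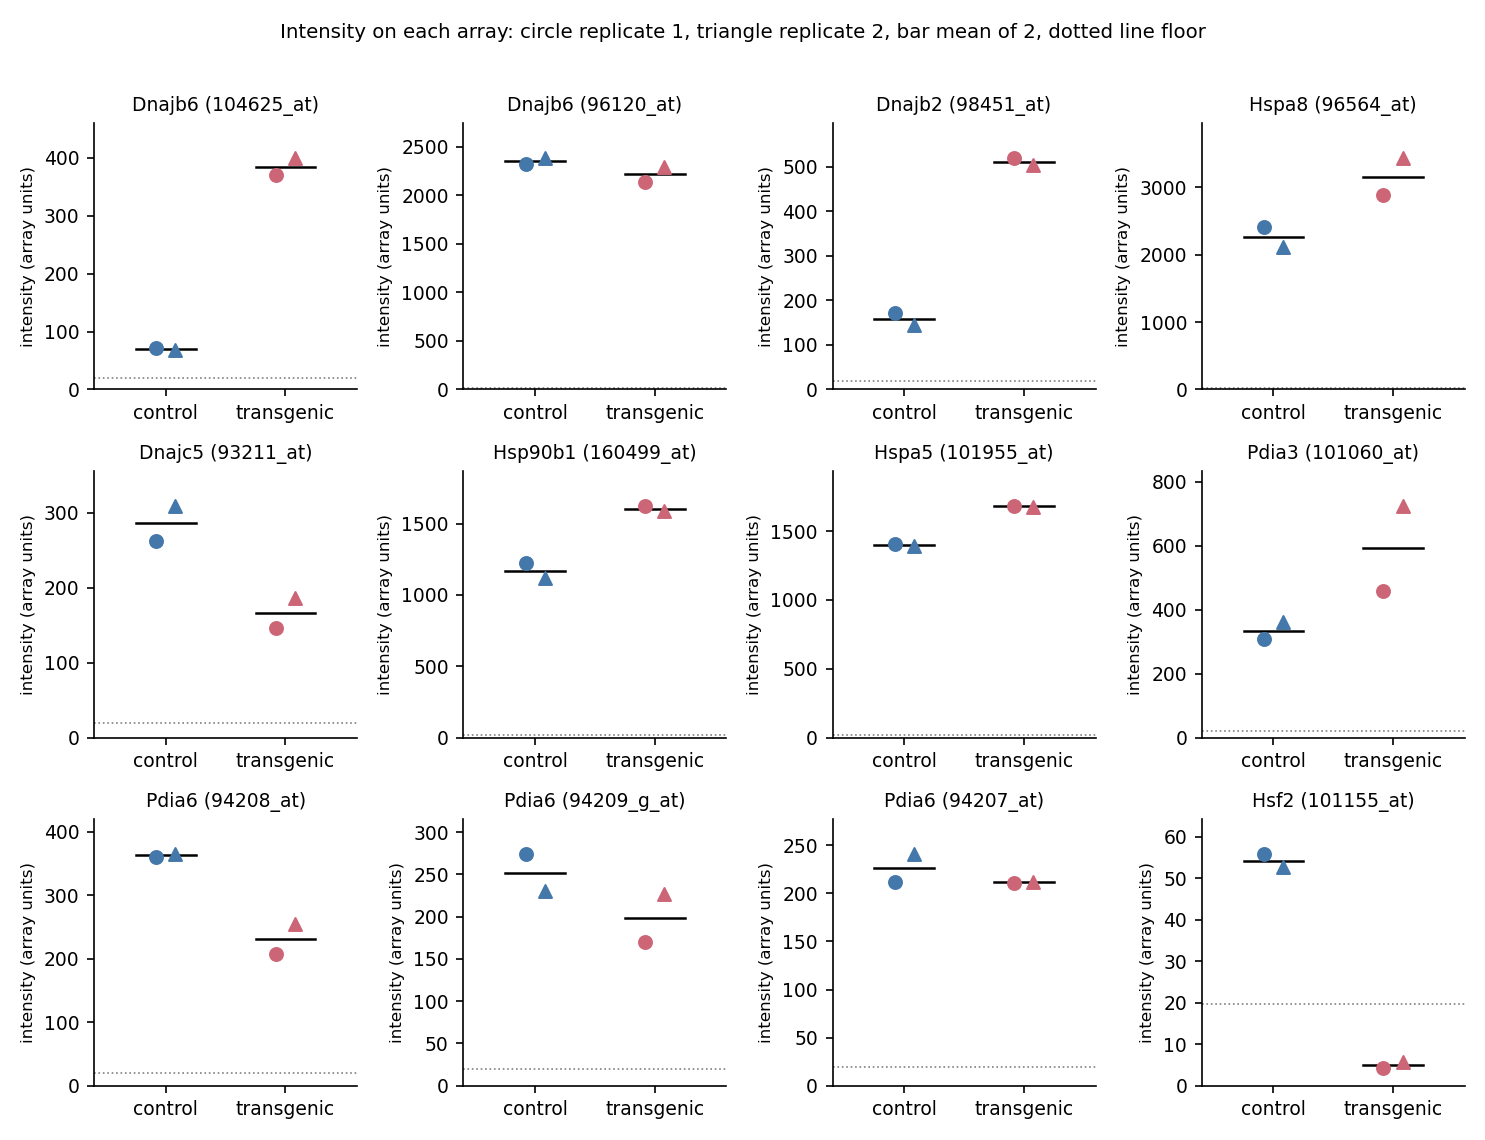
Intensity (array units, axis from 0) of 12 chaperone probe sets on each array, with circles for replicate 1, triangles for replicate 2, bars for the mean of the 2 pools and a dotted line at the floor of 19.675. Dnajb6 separates the groups at 104625_at (71.8 and 68.1 against 369.8 and 399.6) and at 96120_at the transgenic values (2141.4 and 2287.9) lie slightly under the control values (2320.1 and 2384.3), while the transgenic Hsf2 values (4.3 and 5.7) lie under the floor.

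Of 5 tested probe sets of protein disulfide isomerases, which read 3 genes, 1 rose and 1 fell (20.0% each, beside 5.46% and 4.56% of all tested). Pdia3, also called ERp57, which works with calnexin and calreticulin on glycoproteins, read 308.4 and 360.5 on the control arrays, against 459.3 and 724.5 on the transgenic arrays. Both transgenic pools were higher, though they differed from each other, and the rise was 1.73-fold (log2 change 0.79 ± 0.21 SE, adjusted p = 0.0454). It rested on transgenic replicate 2, without which the log2 change was 0.46 and the adjusted p 0.241. Quantile normalization (0.0656), a robust prior (0.0515), a floor at the 40th percentile (0.0593), no intensity trend (0.154) and no filter (0.411) each also took Pdia3 over the threshold.

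Pdia6, an isomerase that binds BiP and restrains the stress sensor IRE1, fell 1.58-fold at 94208_at, from 360.7 and 364.9 to 207.4 and 254.4 (log2 change -0.66 ± 0.17 SE, adjusted p = 0.0375). The groups were apart there and also at 94209_g_at, made from the same sequence, which read 274.1 and 230.5 against 170.3 and 226.8 (-0.35 ± 0.20, adjusted p = 0.320). At 94207_at, from another sequence, the log2 change was -0.10 ± 0.17 (adjusted p = 0.787). The adjusted p at 94208_at was 0.0687 and 0.0879 without control replicates 1 and 2 (log2 changes -0.67 and -0.65), 0.148 and 0.063 without transgenic replicates 1 and 2 (-0.51 and -0.81), 0.0983 without the intensity trend and 0.219 without the filter. Pdia4 had 0.10 ± 0.20 (adjusted p = 0.806).

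The lectin chaperone Canx did not pass at either probe set (0.11 ± 0.16 and -0.11 ± 0.22), and the only Calr probe set read between 1.8 and 19.2, under the floor on all 4 arrays. The J-domain partners of BiP gave no call. Dnajb11 read 101.4 and 135.9 on the control arrays and 184.3 and 169.5 on the transgenic arrays, both transgenic values above both controls (0.59 ± 0.22, adjusted p = 0.127). Dnajc3, which also inhibits the stress kinase PERK, had 0.37 ± 0.18 (adjusted p = 0.251), and Dnajb9 had 0.51 and -0.23 at its 2 probe sets. Among ER prolyl isomerases, Fkbp9 read 261.4 and 233.3 against 342.5 and 343.7 (0.47 ± 0.16, adjusted p = 0.0962) and Fkbp2 had 0.22 ± 0.12 (adjusted p = 0.313).

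Genes whose promoters hold the ER stress element moved both ways. Of their 8 tested probe sets, of 5 genes, Hsp90b1 rose and Pdia6 fell at 1 probe set, 4 log2 changes were above 0 and 4 below, and the median was 0.01. Of the 8 tested ER probe sets of genes where the element was not found, Pdia3 rose, 7 of 8 log2 changes were above 0 and the median was 0.35. All 3 Pdia6 probe sets are among the 8 with the element and lay below 0, and they share 1 gene. The difference between the sets was not tested.

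**Figure D3:**
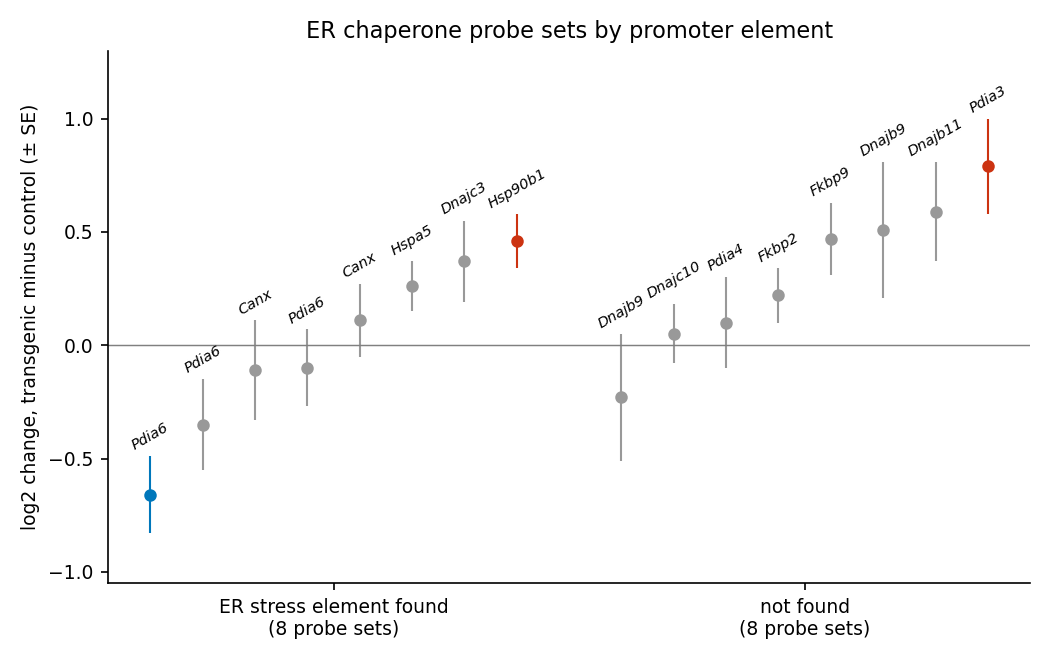
Log2 change (transgenic minus control, with SE) of the 16 tested ER chaperone probe sets, split by whether the ER stress element was found in the gene's promoter, with red for rises, blue for falls and grey for the others. The set with the element spans -0.66 (Pdia6) to 0.46 (Hsp90b1), and the set without it spans -0.23 (Dnajb9) to 0.79 (Pdia3).

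Mitochondrial chaperones gave 0 calls of 9 probe sets of 8 genes. Hspe1, the lid of the mitochondrial chaperonin, read 658.2 and 699.8 on the control arrays, against 796.1 and 998.0 on the transgenic arrays (log2 change 0.39 ± 0.15 SE, adjusted p = 0.134). Hspd1, its barrel, read 1814.8 and 2641.9 against 2850.1 and 2507.9 (0.29 ± 0.17, adjusted p = 0.341), with control replicate 2 inside the transgenic range. Its log2 change was 0.02 without control replicate 1. Without control replicate 2 it was 0.56, and this was the only alternative in which Hspd1 passed. Without transgenic replicates 1 and 2 it was 0.20 and 0.38. The second Hspd1 probe set had 0.33 ± 0.26. Hspa9, the HSP70 that pulls proteins into the matrix, had a log2 change below 0, -0.30 ± 0.16 (adjusted p = 0.283), as did the outer membrane protein Fkbp8 (-0.28 ± 0.11, adjusted p = 0.167) and Dnajc11 (-0.80 ± 0.32, adjusted p = 0.157). Hspd1 and Hspe1, which share the promoter bases shown above, had log2 changes of the same sign.

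Of the 24 chaperone probe sets that were too dim to be tested, 9 were at the floor on all 4 arrays, and 12 genes had no tested probe set. Hsf2, a heat shock factor active in brain development, was among them. It read 55.8 and 52.7 on the control arrays, against 4.3 and 5.7 on the transgenic arrays, at least 2.76-fold lower, where the lower group is set at the floor. It passed where all probe sets were tested without a filter (adjusted p = 0.0384), but both transgenic arrays are at the floor there, so their spread was not measured. Hspb11, a subunit of the transport complex of cilia that was given no compartment, read 18.6 and 14.2 on the control arrays, against 78.2 and 100.4 on the transgenic arrays. That is at least 4.50-fold higher, with both control arrays at the floor, so their spread was not measured. It did not pass where all probe sets were tested without a filter (adjusted p = 0.0961). Hspb11 passed only in fits that left out an array. Hsf4 read 22.8 and 39.0 against 12.1 and 12.9.

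Where a gene was read by more than 1 tested probe set, the readings often differed. Of 11 such genes 6 had log2 changes of both signs, 6 had a spread under 0.5 between the highest and lowest, and Dnajb6 alone had one over 1. Hspd1, at 0.29 and 0.33, and Dnajc8, at 0.19 and 0.26, were the closest. Of the 7 probe sets that passed, those of Dnajb6 and Pdia6 have other tested probe sets and none of these passed. The remaining 5 were read once.

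**Figure D4:**
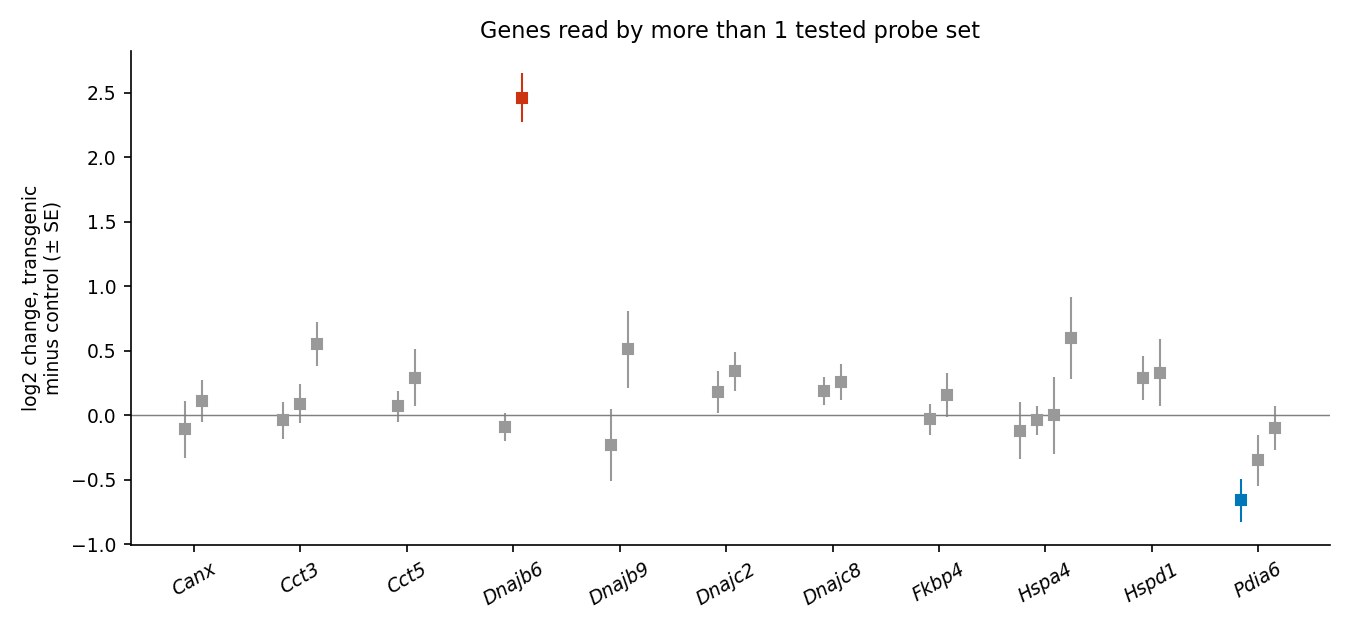
Log2 change (transgenic minus control, with SE) at each tested probe set of the 11 chaperone genes read more than once, with red for rises, blue for falls and grey for the others. Dnajb6 is split by 2.55 between its probe sets, while Hspd1 differs by 0.05.

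Folding genes outside the chosen symbols were read from 3 lists. Of 29 tested probe sets of co-chaperones and folding partners, 3 rose (10.3%, beside 5.46% of all tested) and 1 fell (3.45%, beside 4.56%). The difference between these shares was not tested, and the median log2 change was -0.04. Pfdn2, a subunit of the prefoldin that feeds the chaperonin, rose by 0.50 ± 0.12 (adjusted p = 0.0345), and Pdcl3, a phosducin-like partner of the chaperonin, by 0.79 ± 0.16 (adjusted p = 0.0145). Naca, of the nascent polypeptide complex at the ribosome, rose by 0.83 ± 0.14 (adjusted p = 0.0047). St13, the HSP70-interacting protein Hip, fell by 1.11 on the log2 scale at 97310_at (adjusted p = 0.0377) and had -0.56 ± 0.17 at 97309_at (adjusted p = 0.0677).

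Of 47 tested probe sets of other ER folding and unfolded protein response genes, 0 rose (beside 5.46% of all tested) and 2 fell (4.26%, beside 4.56%). At an unadjusted p under 0.05 (limma) were 11 of the 47, beside 24.3% of all tested, and the median log2 change was -0.11. Ssr3, of the translocon-associated complex, fell by 0.80 at 104248_at (adjusted p = 0.0281), while its other probe sets had -0.91 and -0.11 and did not pass. Mogs, the glucosidase that starts glycan trimming, fell by 0.57 (adjusted p = 0.0367). Targets and factors of the response did not pass: Xbp1 had 0.39 ± 0.14 (adjusted p = 0.121), Ddit3 0.34 ± 0.17 (adjusted p = 0.275), Herpud1 -0.15 ± 0.14 (adjusted p = 0.576) and Atf4 -0.20 ± 0.12 (adjusted p = 0.366). Of 16 tested mitochondrial folding and quality control probe sets, 1 rose and 1 fell (6.25% each, beside 5.46% and 4.56% of all tested). The import channel subunit Timm17a rose by 0.59 (adjusted p = 0.0325). The protease Htra2 fell by 0.83 at 104102_at (adjusted p = 0.0281), while its other probe set had -0.12. The 8 calls of the 3 lists were 5 without control replicate 1, 2 without transgenic replicate 1 and 4 without transgenic replicate 2.

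The arrays had medians between 86.6 and 88.2, and log2 values correlated at 0.972 or more within groups and at most 0.918 between them. All 7 cortical projection neuron genes with a probe set were bright enough to be tested, of which Neurod2 rose by 2.07 and Camk2a fell by 1.54 on the log2 scale, with sums of 5078 to 5318 for the controls and 4516 to 5058 for the transgenic pools. Of 5 tested olfactory bulb probe sets 2 rose, Th by 0.65 and Eomes by 1.58 on the log2 scale, with sums of 858 to 1127 and 1295 to 1483 and a median log2 change of 0.59. The 4 striatal probe sets gave 0 calls and 0 at an unadjusted p under 0.05 (limma), with overlapping sums, and 0 of 6 choroid plexus probe sets were bright enough to be tested (sums of 145 to 158 and 109 to 113). Markers of other cells are given next, and over all tested probe sets 5.46% rose and 4.56% fell. All 3 blood probe sets rose (Hba-a1, Hbb-b2 and Alas2), with sums of 3378 to 3833 and 10159 to 11888, and none of the 3 was at the floor. Of 18 astrocyte probe sets 3 rose (Aqp4 at both its probe sets, 4.29-fold and 12.91-fold, and Fabp7, 2.91-fold) and 3 fell (S100b, Clu and Apoe). Their sums were 27196 to 27410 and 24471 to 24892. The largest part was Apoe at 95356_at, with 10598.5 and 9872.2 on the control arrays and 8204.6 and 7352.3 on the transgenic arrays. Of 9 neuron probe sets 0 rose and 2 fell, Snap25 and the same Camk2a probe set as above. Of the 9 log2 changes 8 were below 0, and the sums were 25677 to 26560 and 20238 to 21758. Of 10 microglial probe sets 0 rose and Tyrobp fell, 9 log2 changes were below 0, and the sums were 3836 to 4097 and 3229 to 3518. Of 10 endothelial and mural probe sets 2 rose and 0 fell, both of Flt1 (1.80-fold at 98452_at and at least 8.19-fold at 98453_at, where both controls are at the floor), with sums of 1568 to 1639 and 1789 to 1873. Of 12 oligodendrocyte probe sets 0 rose and 1 of Mobp fell, and the sums overlapped (5381 to 6616 and 4964 to 5467). Their part in the chaperone values was not tested, and in these bulk samples fewer cells of a type and less RNA per cell cannot be told apart. Strain background, which the labels give for the controls alone, cannot be told apart from the transgene.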

How the data were processed

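The values deposited by the authors are intensities, linear and brought to a common level per array. This was read from the values, as the sources used here name no unit, tool or build. The 66 control features among 12488 were set aside. Genes were named from the platform annotation, which gave 1 symbol to 10833 probe sets, several to 396 and none to 1193. All 75 chaperone symbols matched RefSeq (GRCm38.p6) by gene identifier.

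Values were floored at the 25th percentile (19.675) and log2-transformed, and probe sets with a mean above the 40th percentile were tested. Transgenic minus control was fitted with limma 3.58.1 in R 4.3.3 (lmFit, eBayes with an intensity trend, 2 residual and 7.51 prior degrees of freedom, two-sided), checked on simulated data. Benjamini-Hochberg adjustment ran over all 7453 tested probe sets. Folds are back-transformed log2 changes. The number of arrays limits the precision (median SE 0.188). Members, compartments and lists were chosen with earlier results of these data known, and no set test was run. Named genes were every chaperone probe set that passed, other probe sets of those genes, a list of leading chaperones, and every gene of the 3 folding lists that passed. Those outside this rule, among them Dnajb5, Dnajb11, Dnajc3, Dnajb9, Fkbp9, Fkbp2, Fkbp8, Dnajc11, Dnajc8, Pdia4, Hspa4, Hspb11, Hsf4, Xbp1, Ddit3, Herpud1 and Atf4, were named after their values were seen.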

Additional observations from a re-analysis of the deposited data

How the results depend on the processing

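Under 15 alternatives, 40 named chaperone probe sets gave 586 values, of which 552 kept their side of the threshold, 30 lost a call, 4 gained one and 0 reversed. Most of the 40 had no call to lose, and the 30 losses came from the 7 that were called. The gains were of Dnajb5 and of Hspd1 at 93277_at. Of the 15 alternatives, Pdia3 and Pdia6 (94208_at) passed in 9, Hsp90b1 and Dnajc5 in 10, Hspa8 in 8 and Dnajb2 in 14. Dnajb6 (104625_at) passed in all 14 that tested it. Of the 7 chaperone calls, 5 were lost without at least 1 of the arrays, with fewer samples in each such fit, while those of Dnajb6 and Dnajb2 were kept. The log2 changes of the 5 kept their sign, at 0.46 to 1.12 for Pdia3, 0.35 to 0.61 for Hspa8, 0.39 to 0.52 for Hsp90b1, -0.96 to -0.61 for Dnajc5 and -0.81 to -0.51 for Pdia6 at 94208_at.

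Without the filter on dim probe sets 48 probe sets passed over the array, with 1 chaperone higher, 1 lower and 0 related folding genes, and medians of 0.00 in the cytosol and 0.10 in the ER. Without the intensity trend 395 passed, with 2 chaperones higher, 0 lower and 2 related genes. With a floor at the 40th percentile, or quantile normalization, 3 chaperones were higher. With a filter at the 60th percentile the medians were 0.09 (cytosol), 0.22 (ER) and 0.12 (mitochondria), and with 1 probe set per gene -0.01, 0.32 and -0.10. The cause was not tested, beyond the number of probe sets each setting reads.

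Leaving out 1 array gave 387 to 745 calls over the array, 2 to 7 chaperones higher, 0 to 2 lower and 2 to 8 related genes. Medians ran from 0.04 to 0.07 (cytosol), 0.13 to 0.29 (ER) and -0.22 to 0.12 (mitochondria). The lone array of a group was assumed to vary like the other group.

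Replicate numbers are shared between groups, and the labels do not say whether the same number means a shared batch. Across probe sets, the deviations of samples of the same number correlated at r = 0.056. This is a single value over the array, and a shared batch was not tested. With the replicate block 892 probe sets passed, 5 chaperones were higher and 3 lower, 10 related genes passed and the medians were 0.06, 0.16 and 0.06. The block added Dnajb5 to the falls (adjusted p = 0.0181) and changed no other call of a named chaperone.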
